A study of Mus musculus with 3 samples.

Results

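Messenger RNA for glucose use and for the hypoxia response was measured in primary mouse pre-osteoclasts, the mononuclear bone-derived precursors that fuse into bone-resorbing osteoclasts. The genes described are a list of 32 names: 19 that take up glucose, run glycolysis or export lactate, and 13 that regulate or respond to hypoxia-inducible factor 1 (HIF1). They were found by gene symbol, all 32 with 1 row each, among the 24067 genes of the authors' table. MCSF and RANKL were given for 2 days to start osteoclast differentiation, and orbital shear stress, fluid flow from a swirling dish, was applied for 24 hours. The 3 groups were sheared cells with Ift88 shRNA (labelled Ift88 knockdown), sheared cells with control shRNA (labelled WT), and static cells with control shRNA (labelled WT, no treatment), with 1 library in each. The sources used here do not give the mouse strain, age, number of animals or shRNA vector. No static group with Ift88 shRNA was analysed here, so the shRNA was compared under shear alone.

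Glycolysis turns glucose into pyruvate in the cytosol, and lactate dehydrogenase with a lactate exporter lets it run without mitochondrial oxidation. HIF1 is a transcription factor whose alpha subunit is hydroxylated and destroyed when oxygen is plentiful, and when stable it switches on most glycolytic genes together with genes of angiogenesis, mitophagy and collagen hydroxylation. Osteoclast formation and bone resorption are known to draw on both glycolysis and oxidative phosphorylation.

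Levels are in FPKM, sequenced fragments scaled to transcript length and to library depth, so genes can be compared by level. With 1 library in each group there is no test and no replicate check behind any difference, and every statement describes these 3 libraries. Ratios of FPKM carry a 95% counting interval in brackets, which covers counting error only. Its counts were inferred from the FPKM values and the shortest listed transcript, so it is approximate. Estimated depth was between 35198167 and 35574217 fragments. Ift88, the ciliary transport gene targeted by the shRNA, was at 1.197 FPKM in the Ift88 shRNA library, 2.71 in the sheared control and 2.98 in the static control, the direction the label gives. Of 13 osteoclast genes, 10 had a mean of at least 1 FPKM. Acp5 (tartrate-resistant acid phosphatase), at 83.0, 52.9 and 97.7 FPKM in that order, was highest in static cells. Mmp9 (a matrix metalloproteinase), at 85.5, 39.3 and 70.3 FPKM, was highest with Ift88 shRNA. Most of these 10 osteoclast genes were lowest in the sheared control. Of the 10, 8 were lower in the sheared than in the static control, and 9 were higher with Ift88 shRNA than in the sheared control. Acp5, Mmp9, Ctsk (18.5, 12.6 and 29.4 FPKM), Nfatc1, Tnfrsf11a, Dcstamp and Tcirg1 had their lowest level in the sheared control. Others did not. Atp6v0d2, at 182, 199 and 211 FPKM, was lowest with Ift88 shRNA, and Itgb3, at 8.12, 7.08 and 5.36, was lowest in static cells, as was Csf1r. Ocstamp, Calcr and Oscar, genes of more mature cells, were below 1 FPKM in every library.

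Glucose enters through Slc2a1, the transporter GLUT1 (chromosome 4, 119108745 to 119137330 in GRCm38), which was at 15.5 FPKM in the Ift88 shRNA library, 16.2 in the sheared control and 16.8 in the static control. Hexokinases phosphorylate it, and Hk3 (chromosome 13, 55005985 to 55021475), the isoenzyme typical of myeloid cells, was the most abundant, at 182 FPKM with Ift88 shRNA, 194 in the sheared control and 195 in the static control. Hk3 made up 80.4%, 82.4% and 83.2% of the summed hexokinase FPKM in those libraries. Hk1, the broadly expressed isoenzyme, was at 34.1, 30.7 and 29.4 FPKM in the same order of libraries, highest with Ift88 shRNA. Hk2, the hypoxia-inducible isoenzyme, was at 10.4, 10.6 and 10.1 FPKM, a spread of under 1 FPKM.

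Gpi1, which isomerises glucose 6-phosphate, was at 115 FPKM with Ift88 shRNA, 117 in the sheared control and 106 in the static control, so the static library was lowest. Phosphofructokinase, the committed step, was mostly the platelet-type gene Pfkp, at 27.0 FPKM with Ift88 shRNA, 24.9 in the sheared control and 23.7 in the static control. Its liver-type partner Pfkl was at 9.33, 9.30 and 8.48 FPKM, and the muscle-type gene Pfkm at 3.83, 4.38 and 4.40. Pfkp held 67.2%, 64.5% and 64.8% of the summed FPKM of the 3 genes.

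Aldolase was almost wholly Aldoa (chromosome 7, 126795234 to 126800994), at 848 FPKM with Ift88 shRNA, 854 in the sheared control and 765 in the static control. Aldoc, the brain-type aldolase and a hypoxia-responsive gene, was at 5.20, 3.90 and 3.79 FPKM and supplied 0.610%, 0.455% and 0.493% of the summed aldolase FPKM. The Aldoc level stood out in the Ift88 shRNA library, whereas the sheared and static controls were close. Tpi1, which interconverts the triose phosphates, was at 247, 242 and 242 FPKM, nearly equal throughout.

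Of the later steps, Gapdh and Pkm were the most abundant. Gapdh (chromosome 6, 125161852 to 125166467), the NADH-producing dehydrogenase, was at 1224 FPKM with Ift88 shRNA, 1111 in the sheared control and 937 in the static control, ranking 41, 45 and 61 of all genes. Pkm (chromosome 9, 59656576 to 59679372), pyruvate kinase, was at 753, 685 and 571 FPKM in that order. Both genes were lowest in the static library and highest with Ift88 shRNA. Pgk1, the first ATP-producing kinase of the pathway (chromosome X, 106187100 to 106203699), was at 236, 275 and 259 FPKM, lowest with Ift88 shRNA. The mutase gene Pgam1 was at 394, 383 and 375 FPKM.

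Enolase was mainly Eno1, at 285 FPKM with Ift88 shRNA, 271 in the sheared control and 246 in the static control, with the neuronal-type gene Eno2 at 11.5, 10.9 and 10.3. The near-identical copy Eno1b was listed at 112, 106 and 97.8 FPKM, so the division between Eno1 and Eno1b is uncertain. Their sum was 397, 377 and 344 FPKM, in the same order as Eno1 alone. Ldha, which makes lactate, was at 340, 313 and 315 FPKM, and the lactate exporter Slc16a3 (MCT4) at 10.6, 10.2 and 9.51. Over the 19 genes the summed level was 4752 FPKM with Ift88 shRNA, 4566 in the sheared control and 4128 in the static control. Without Gapdh and Pkm the sum was 2775, 2770 and 2620 FPKM, nearly equal in both sheared libraries.

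**Figure D1:**
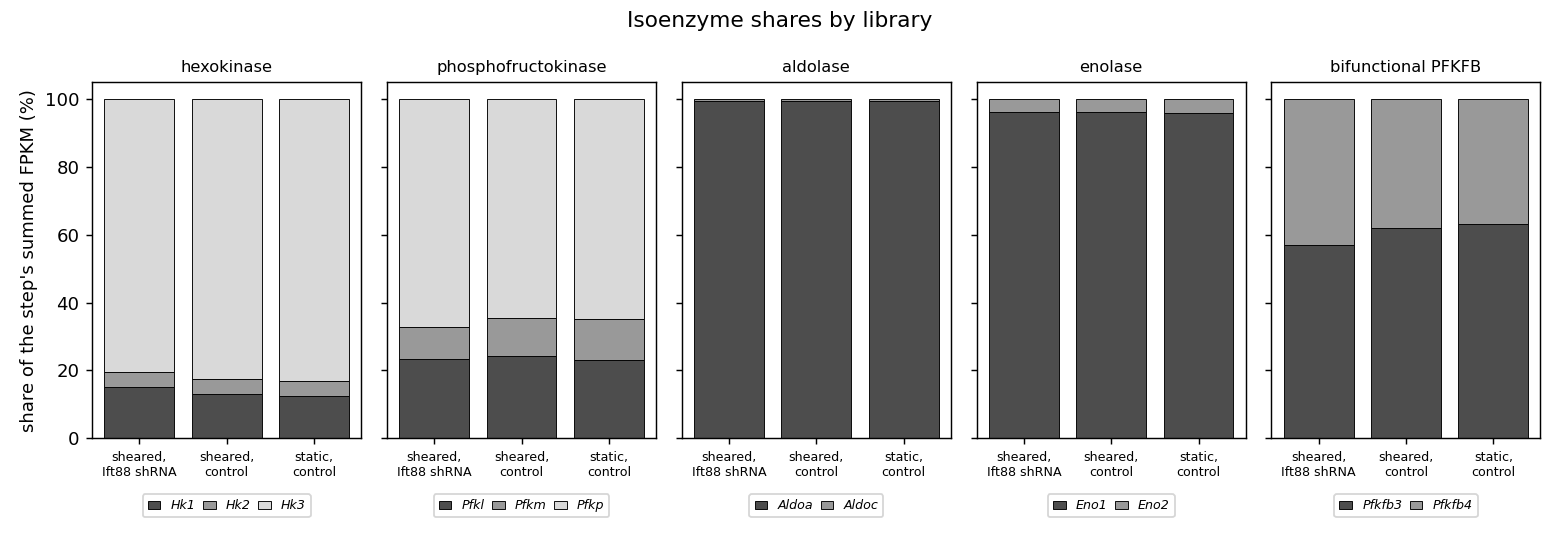
Share of each step's summed FPKM (percent) held by its isoenzymes, with 1 bar per library (sheared Ift88 shRNA, sheared control shRNA, static control shRNA) and 1 shade per gene. Hk3, Pfkp, Aldoa and Eno1 hold most of their steps in all 3 libraries, and Pfkfb3 falls between 57.0% and 63.1% of its pair; no error is shown because each group is 1 library and the Eno1 share leaves out Eno1b.

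Enzymes that set the direction of flux were lower in level. Pfkfb3, which makes the activator of phosphofructokinase (chromosome 2, 11471430 to 11554071), was at 14.3 FPKM with Ift88 shRNA, 15.8 in the sheared control and 17.5 in the static control. Its relative Pfkfb4 was at 10.8, 9.63 and 10.2 FPKM, so Pfkfb3 made up 57.0%, 62.1% and 63.1% of their sum. Pdk1, the kinase that inhibits pyruvate dehydrogenase and so keeps pyruvate from oxidation in the mitochondrion, was at 2.44, 1.99 and 1.91 FPKM, highest with Ift88 shRNA.

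Hif1a, the oxygen-regulated subunit of HIF1 (chromosome 12, 73901324 to 73947554), was at 21.2 FPKM with Ift88 shRNA, 20.9 in the sheared control and 22.7 in the static control. Of the prolyl hydroxylases that mark the protein for destruction, Egln1 (PHD2, chromosome 8, 124908587 to 124949254) was at 9.20, 11.5 and 10.8 FPKM. The Egln1 level was lowest with Ift88 shRNA, and both controls lay above it. Egln3 (PHD3), a hydroxylase that HIF1 itself induces, was at 0.444, 0.272 and 0.207 FPKM and was the 1 member of 32 below a mean of 1 FPKM, with an estimated 39, 24 and 18 fragments.

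Among the other targets, Ndrg1, a stress-induced gene, had the highest level, at 57.4 FPKM with Ift88 shRNA, 59.1 in the sheared control and 62.7 in the static control. The mitophagy receptor gene Bnip3l was at 46.7, 50.5 and 49.9 FPKM, and its relative Bnip3 at 12.7, 14.8 and 12.8. Bnip3 was highest in the sheared control, with the Ift88 shRNA and static libraries close together. P4ha1, a catalytic subunit of collagen prolyl hydroxylase, was at 19.7, 18.6 and 20.6 FPKM. Vegfa, the angiogenic growth factor, was at 3.37, 3.24 and 3.95 FPKM, highest in static cells. Ankrd37, a sensitive HIF1 target, was at 1.57, 1.37 and 1.85 FPKM, and Ddit4 (REDD1), which restrains the growth kinase mTORC1, at 1.89, 1.45 and 1.39. Ankrd37 was highest in the static library and Ddit4 with Ift88 shRNA, both at low levels.

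**Figure D2:**
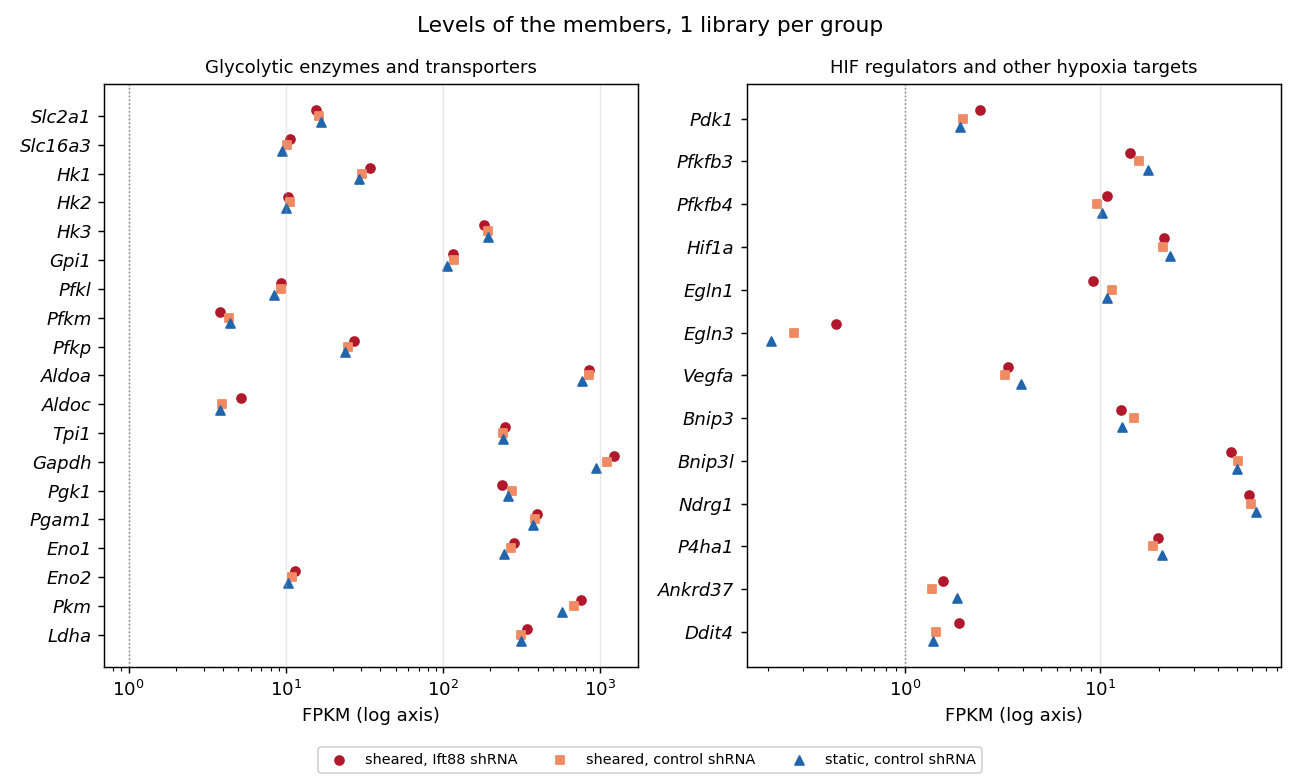
FPKM on a log axis for the 19 glycolytic enzymes and transporters (left) and the 13 HIF regulators and other hypoxia targets (right), with 1 point per library for the 3 groups; the dotted line marks 1 FPKM. Gapdh, Aldoa and Pkm sit highest, Egln3 is the sole member left of the line, and within each gene the 3 points lie close together beside the range between genes.

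The promoters printed here belong to the 3 members with the largest log2 ratio of (FPKM + 1), in either direction, in the shear comparison (Ankrd37, Pkm, Gapdh) and in the Ift88 shRNA comparison (Aldoc, Egln1, Ddit4). Each runs 5′ to 3′ on the gene's own strand over 300 bases, 250 before and 50 from the start of the first listed transcript (RefSeq, GRCm38.p6). Capitals mark the core of the hypoxia response element, ACGTG or GCGTG, on either strand (CACGT or CACGC as printed), and overlapping matches run together.
Ankrd37, chr8:45999801-46000100, minus strand: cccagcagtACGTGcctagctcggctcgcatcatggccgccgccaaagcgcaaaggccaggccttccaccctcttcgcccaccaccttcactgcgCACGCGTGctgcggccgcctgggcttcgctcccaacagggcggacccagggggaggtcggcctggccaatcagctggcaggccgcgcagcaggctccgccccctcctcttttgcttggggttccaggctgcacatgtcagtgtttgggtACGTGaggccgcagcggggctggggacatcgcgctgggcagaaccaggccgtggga
Pkm, chr9:59656326-59656625, plus strand: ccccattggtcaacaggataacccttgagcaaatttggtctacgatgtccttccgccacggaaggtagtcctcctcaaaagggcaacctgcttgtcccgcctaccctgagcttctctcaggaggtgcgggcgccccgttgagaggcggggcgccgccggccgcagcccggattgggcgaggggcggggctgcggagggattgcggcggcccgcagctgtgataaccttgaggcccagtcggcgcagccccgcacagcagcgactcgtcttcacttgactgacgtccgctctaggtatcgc
Gapdh, chr6:125165724-125166023, minus strand: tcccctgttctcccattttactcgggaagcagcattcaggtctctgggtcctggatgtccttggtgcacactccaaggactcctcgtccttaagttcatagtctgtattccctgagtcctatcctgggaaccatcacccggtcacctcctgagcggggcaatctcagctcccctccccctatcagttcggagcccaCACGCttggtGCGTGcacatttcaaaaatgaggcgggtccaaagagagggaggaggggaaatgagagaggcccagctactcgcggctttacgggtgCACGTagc
Aldoc, chr11:78322823-78323122, plus strand: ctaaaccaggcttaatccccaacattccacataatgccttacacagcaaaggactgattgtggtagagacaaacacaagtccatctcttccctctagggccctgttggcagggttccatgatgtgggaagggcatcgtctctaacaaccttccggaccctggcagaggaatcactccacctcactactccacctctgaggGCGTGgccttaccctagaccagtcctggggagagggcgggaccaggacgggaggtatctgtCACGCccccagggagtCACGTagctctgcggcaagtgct
Egln1, chr8:124949205-124949504, minus strand: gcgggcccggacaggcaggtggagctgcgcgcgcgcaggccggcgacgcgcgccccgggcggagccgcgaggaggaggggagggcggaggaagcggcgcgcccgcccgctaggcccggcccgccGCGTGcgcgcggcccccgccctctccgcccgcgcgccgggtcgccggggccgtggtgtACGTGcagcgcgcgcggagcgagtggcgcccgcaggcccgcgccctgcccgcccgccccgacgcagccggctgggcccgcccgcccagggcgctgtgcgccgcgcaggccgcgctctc
Ddit4, chr10:59951721-59952020, minus strand: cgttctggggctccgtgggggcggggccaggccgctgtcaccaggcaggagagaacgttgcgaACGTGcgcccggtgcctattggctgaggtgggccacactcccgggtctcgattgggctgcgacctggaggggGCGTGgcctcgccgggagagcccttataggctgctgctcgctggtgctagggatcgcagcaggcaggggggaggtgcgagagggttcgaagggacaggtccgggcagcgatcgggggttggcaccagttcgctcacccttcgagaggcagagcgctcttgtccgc

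Ankrd37 held 3 matches on the printed strand and 1 on the other, with 1 pair overlapping, the most among these promoters. Gapdh and Aldoc each held 1 on the printed strand and 2 on the other, Egln1 and Ddit4 each held 2 on the printed strand, and Pkm had no match in this window. Of the 32 members, 30 had a promoter entry, and 23 of these (76.7%) held at least 1 match. Among 8393 genes at a mean of at least 1 FPKM with an entry, 65.0% did. By group it was 13 of 19 glycolytic genes (68.4%) and 10 of 11 in the hypoxia group (90.9%). With the ACGTG core alone the shares were 60.0% of the members and 27.2% of those genes. By group they were 52.6% for the glycolytic genes and 72.7% for the hypoxia group. Members were listed for glycolysis or the HIF1 response, so these shares are no independent evidence of HIF1 control. These letters also occur in E-boxes, and a match is a description of the sequence, not of binding.

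How pre-osteoclasts respond to shear was read from the sheared and static libraries that carried control shRNA. Several abundant glycolytic enzymes were slightly higher in the sheared library. Pkm had 685 FPKM in sheared and 571 in static cells, a ratio of 1.198 (1.18 to 1.22). Gapdh had 1111 against 937 FPKM, a ratio of 1.19 (1.17 to 1.203). Aldoa was at 854 against 765 FPKM (ratio 1.12, 1.0995 to 1.13), Gpi1 at 117 against 106 (1.11, 1.08 to 1.14) and Eno1 at 271 against 246 (1.102, 1.08 to 1.13). Not every step was higher: the ratio was 0.998 (0.978 to 1.02) for Hk3, 0.997 (0.973 to 1.02) for Tpi1, 0.991 (0.966 to 1.02) for Ldha and 0.965 (0.903 to 1.03) for Slc2a1.

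Of the 19 glycolytic enzymes and transporters, 14 were higher and 5 lower in the sheared library, against 46% of all 10358 genes with a mean of at least 1 FPKM that were higher. Their median log2 ratio of (FPKM + 1), a scale that understates differences of low genes, was 0.071, beside -0.011 for all genes. At 1.1-fold or more, 5 of the 19 were higher (background 10.3%) and 0 lower (background 12.4%). Of the 31 members at that level, 0 differed by 1.2-fold, where 4.2% of all genes did, and 0 by 1.5-fold, where 0.454% did. Pkm (log2 0.26) and Ankrd37 (log2 -0.26) lay just under that limit. In bulk RNA a difference in the shares of cell types and one in the RNA of each cell cannot be told apart.

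The second group, the HIF regulators and other hypoxia targets with the flux regulators Pdk1, Pfkfb3 and Pfkfb4, was mixed in the sheared library. Of the 12 with a mean of at least 1 FPKM, 5 were higher and 7 lower, where 46% of all genes were higher, with a median log2 ratio of -0.081. At 1.1-fold, 1 was higher (Bnip3, background 10.3%) and 4 were lower (background 12.4%). The lower ones were Pfkfb3 (ratio 0.904, 0.815 to 1.00004), P4ha1 (0.903, 0.856 to 0.954), Vegfa (0.821, 0.555 to 1.198) and Ankrd37 (0.744, 0.477 to 1.195). The intervals of Pfkfb3, Vegfa and Ankrd37 include no difference, and those of Vegfa and Ankrd37, which rest on few estimated fragments, are wide. For Vegfa the width depends on the shortest transcript used for the estimate, of 654 bases. Bnip3 had a ratio of 1.15 (1.04 to 1.28) and Hif1a one of 0.923 (0.880 to 0.967). Whether the glycolytic group and the second group differ beyond the variation between cultures was not tested.

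The shortest transcripts of the glycolytic members had a median of 2272 bases, against 2641 for all genes, and a median GC content of 54.1%, against 50.4%. After centring within bins of transcript length and GC content together, the median log2 ratio was 0.055 for the glycolytic group and -0.065 for the hypoxia group. Pkm then stood at 0.24 and Gapdh at 0.19, while Aldoa stood at 0.099 in place of 0.16 and Eno1 at 0.076 in place of 0.14, all on the log2 scale. Neutrophil markers were lower in the sheared library in all 5 measured members, with a summed level of 43.6 FPKM over the list against 77.7. The neutrophil genes Elane and Mpo were listed at 0 in the sheared library, but had only an estimated 3 and 5 fragments in the static library. Cxcr2, also below 1 FPKM, went the other way, at 0.170 in the sheared and 0.117 in the static library. Osteoclast markers were lower in 8 of 10 (984 against 1099 FPKM), macrophage markers in 8 of 9 (2420 against 2489), dendritic markers in all 4 (133 against 151) and stromal markers in all 4 (7.77 against 10.6). The haemoglobin genes Hba-a1, Hbb-b1 and Hbb-bs were listed at 0 in every library, as was the T cell gene Cd3e. The part of these other cell types in the glycolytic values was not tested.

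What the Ift88 shRNA alters under shear was read from both sheared libraries, and the sheared control library is shared with the shear comparison. Single members differed, with no common direction. For Aldoc the ratio was 1.33 (1.11 to 1.61), with 5.20 FPKM under Ift88 shRNA and 3.90 under control shRNA. For Egln1 it was 0.797 (0.736 to 0.864), with 9.20 FPKM under Ift88 shRNA and 11.5 under control shRNA. On the log2 (FPKM + 1) scale these were the 2 members of 31 past 1.2-fold, 1 higher (background 3.25%) and 1 lower (background 2.29%), a share close to the 5.54% of all genes past it in either direction. At 1.5-fold there were 0 members (background 0.483%). By the ratio of FPKM with no pseudocount, Pdk1 and Ddit4 were past 1.2-fold too, which made 4.

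Within glycolysis, Pgk1 was lower with Ift88 shRNA than in the sheared control (236 and 275 FPKM, ratio 0.857, 0.837 to 0.877), and the genes on either side of it were not. Gapdh, the step before, had a ratio of 1.102 (1.09 to 1.12), and Pgam1, the step after, 1.03 (1.01 to 1.05). Pkm stood at 1.0995 (1.09 to 1.11), Hk1 at 1.11 (1.06 to 1.16), Ldha at 1.09 (1.06 to 1.11) and Hk3 at 0.938 (0.919 to 0.958). Of the 19 genes, 12 were higher and 7 lower, where 53.6% of all genes were higher. Their median log2 ratio was 0.043, beside 0.010 for all genes. At 1.1-fold, 3 were higher (Hk1, Aldoc and Gapdh, background 13.4%) and 2 lower (Pfkm and Pgk1, background 9.92%). The interval of Pfkm, 0.758 to 1.01 around a ratio of 0.876, includes no difference.

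In the hypoxia group 7 of 12 were higher and 5 lower with Ift88 shRNA, where 53.6% of all genes were higher, with a median log2 ratio of 0.029. This median was -0.077 over the 8 members with a mean of at least 5 FPKM, so its sign depended on the low genes. At 1.1-fold, 3 were higher (Pdk1, Pfkfb4 and Ddit4, background 13.4%) and 3 lower (Pfkfb3, Egln1 and Bnip3, background 9.92%). Pdk1 had a ratio of 1.22 (1.06 to 1.41) and Bnip3 one of 0.858 (0.774 to 0.950), with its relative Bnip3l at 0.924 (0.889 to 0.960). Ddit4 stood at 1.302 (0.965 to 1.77) and Pfkfb3 at 0.903 (0.811 to 1.01), intervals that include no difference, and Hif1a at 1.01 (0.964 to 1.06). Osteoclast markers were higher in 9 of 10 members in the same comparison (1089 against 984 FPKM summed), dendritic markers in all 4 (154 against 133), stromal markers in all 4 (10.1 against 7.77), macrophage markers in 4 of 9 (2422 against 2420) and neutrophil markers in 3 of 5 (45.1 against 43.6), and their part in these values was not tested.

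**Figure D3:**
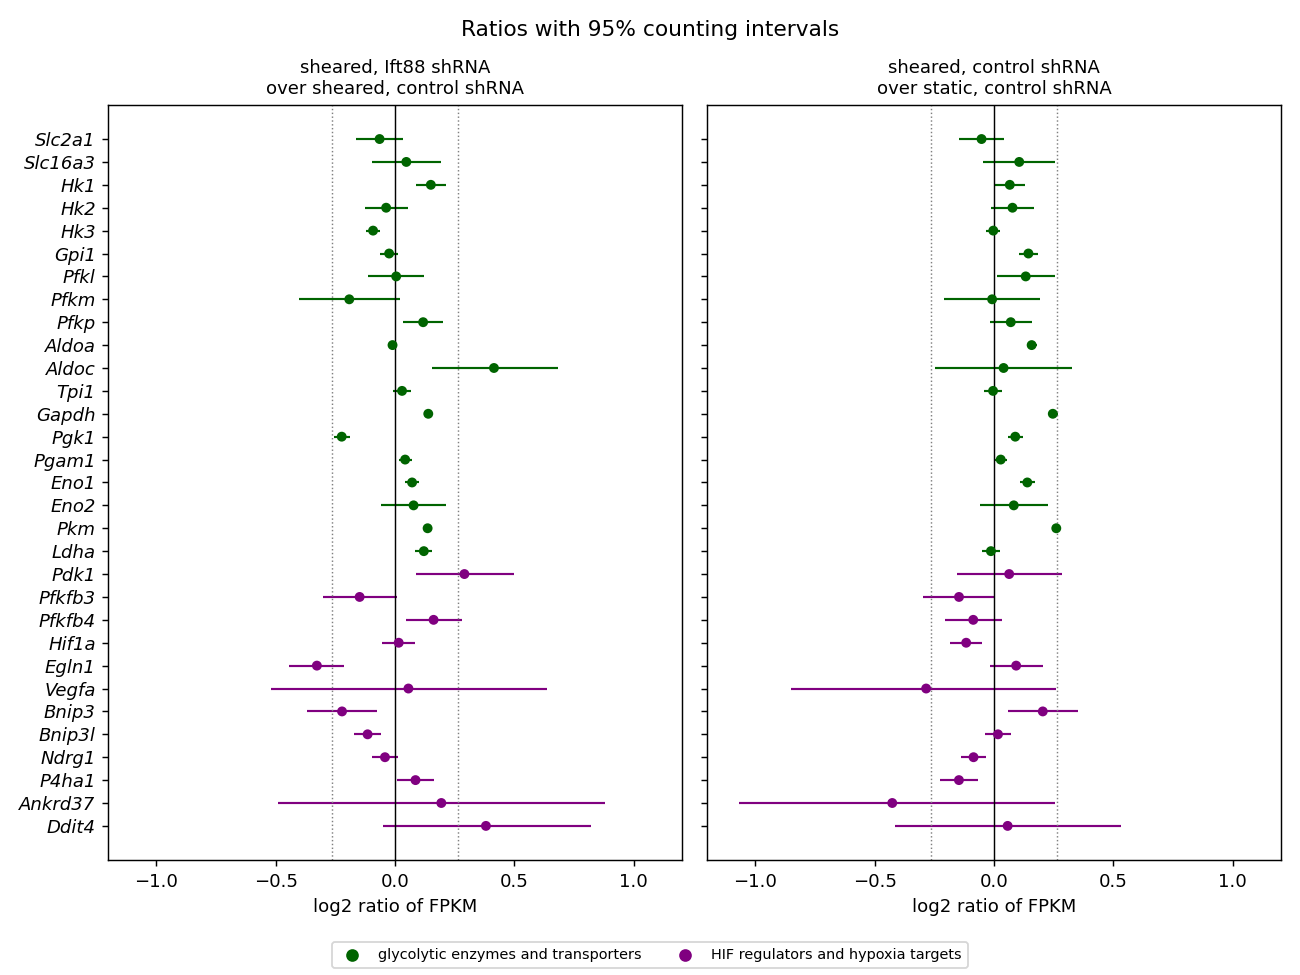
Log2 ratio of FPKM for the 31 members with a mean of at least 1 FPKM, sheared Ift88 shRNA over sheared control (left) and sheared control over static control (right). Points are ratios, bars are 95% counting intervals and dotted lines mark 1.2-fold, which Pdk1 and Ddit4 (left) and Vegfa and Ankrd37 (right) pass on this scale but not with 1 FPKM added; abundant enzymes such as Gapdh and Pkm have intervals narrower than the point, while Vegfa and Ankrd37 span both sides of 0.

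Sheared Ift88 shRNA cells against static control cells differ in both shear and shRNA, and this pair shares a library with each comparison above, so its values are given side by side and add no independent evidence. Pkm had 753 FPKM with Ift88 shRNA and shear against 571 in static cells, a ratio of 1.32 (1.300 to 1.34). Gapdh had 1224 against 937 FPKM, a ratio of 1.31 (1.29 to 1.33). Aldoc had a ratio of 1.37 (1.14 to 1.66), Ddit4 1.36 (1.001 to 1.85) and Pfkfb3 0.816 (0.733 to 0.906). On the log2 (FPKM + 1) scale these 5 were the members past 1.2-fold, 4 higher (background 4.79%) and 1 lower (background 4.48%), where 9.27% of all genes were past it in either direction, and 0 members reached 1.5-fold (background 0.743%). By the ratio of FPKM with no pseudocount Pdk1, at 1.28 (1.11 to 1.48), made it 6. At 1.1-fold, 11 of the 31 were higher (background 16.9%) and 5 lower (background 15.7%). The glycolytic group was higher in 15 of 19 members, where 49.8% of all genes were, with a median log2 ratio of 0.12, and the hypoxia group in 3 of 12 with a median of -0.096, beside -0.00030 for all genes. The summed glycolytic level was 4752 against 4128 FPKM, a ratio of 1.15, and without Gapdh and Pkm it was 2775 against 2620 FPKM. After centring by transcript length and GC content the glycolytic median was 0.064 and that of the hypoxia group -0.026. In this pair neutrophil markers were lower in all 5 (45.1 against 77.7 FPKM summed), macrophage markers in 8 of 9 (2422 against 2489) and stromal markers in 3 of 4 (10.1 against 10.6), while osteoclast markers were higher in 6 of 10 (1089 against 1099) and dendritic markers in 3 of 4 (154 against 151), and their part was not tested.

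**Figure D4:**
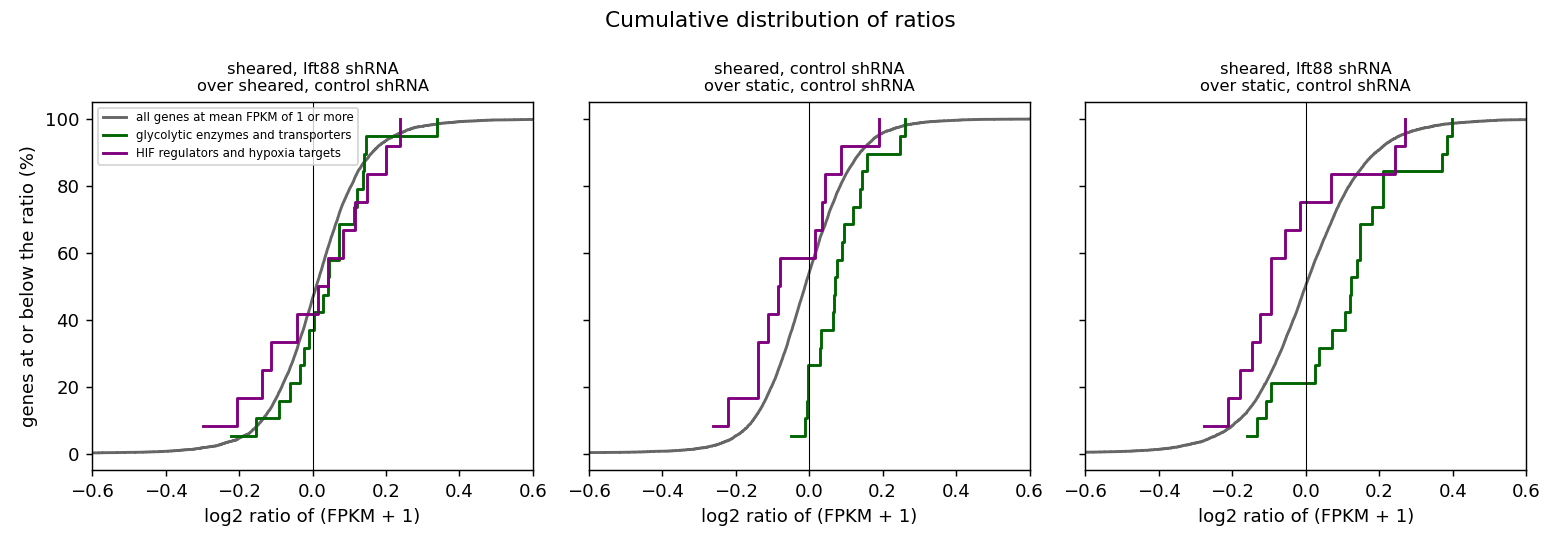
Cumulative percent of genes at or below each log2 ratio of (FPKM + 1) in the 3 pairs of libraries, for all 10358 genes (grey), the 19 glycolytic enzymes and transporters (green) and the 12 HIF regulators and hypoxia targets with a mean of at least 1 FPKM (purple). In the pairs set against the static library the green line lies right of the grey, with medians of 0.071 and 0.12, and much of the purple line lies left of it. In the Ift88 shRNA against sheared control pair the medians are close, at 0.043 (green), 0.029 (purple) and 0.010 (grey). The purple line is broader there: at 1.1-fold 3 of its 12 genes were higher (background 13.4%) and 3 lower (background 9.92%).

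The wider pathway was followed in 98 further genes, of which 76 had a mean of at least 1 FPKM: 28 of 34 linked to glycolysis and pyruvate use, 12 of 14 of the HIF pathway and 36 of 50 other hypoxia targets. In sheared against static control cells, 2 of the 76 were past 1.2-fold higher (background 1.94%) and 3 lower (background 2.26%). Mif, a cytokine gene induced by HIF1, was at 328 FPKM in sheared and 260.1 in static cells, and the stress gene Sesn2 at 10.9 and 8.91. The lower ones were P4ha2, a sister subunit of P4ha1, at 3.31 against 4.23 FPKM, the transferrin receptor gene Tfrc at 56.2 against 67.8, and the lipid droplet gene Plin2 at 387 against 466. Among the other hypoxia targets 11 of 36 were higher and 25 lower in the sheared library, with a median log2 ratio of -0.047, and among the other glycolysis genes 17 of 28 were higher, with a median of 0.026. Over all genes 46% were higher, with a median of -0.011.

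With Ift88 shRNA against the sheared control, 2 of the 76 were past 1.2-fold higher (background 3.25%) and 1 lower (background 2.29%), shares under those of all genes. P4ha2 stood at 5.26 FPKM with the shRNA and 3.31 without it (ratio 1.59, 1.35 to 1.87). Pfkfb1, a further relative of Pfkfb3, was at 1.57 against 0.982 FPKM. Ldhb, the heart-type lactate dehydrogenase subunit, stood at 4.48 FPKM with the shRNA and 5.995 without it (ratio 0.747, 0.611 to 0.913).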

How the data were processed

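Poly(A)-selected RNA libraries (Illumina TruSeq mRNA kit, per the labels' protocols) were processed by the authors with TopHat2 2.0.13 and Cufflinks 2.2.1 on build mm10, after bcl2fastq 1.8.4 and Trimmomatic 0.32, per the submitters' processing notes. The sources used here give no settings, strand handling or annotation release. The deposited values are FPKM per gene, per the file headers, a share of each library. How fragments were divided between similar copies is not stated, so Gapdh, Pgk1, Pgam1, Aldoa, Tpi1, Ldha and Eno1, which have near-identical copies or pseudogenes, are uncertain in level.

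Ratios were log2 of (FPKM + 1), over the 10358 genes with a mean of at least 1 FPKM. Genes were counted at 1.1-fold, 1.2-fold and 1.5-fold. The number of fragments per library was inferred from the steps between low values in genes with 1 transcript of at least 1000 bases (length less 200 bases), giving 35448423 fragments for the Ift88 shRNA library, 35574217 for the sheared control and 35198167 for the static control. Of values up to 10 fragments, 58.1%, 58.6% and 59.3% were whole within 0.1, so the inferred counts are approximate and no count-based test was run. Clopper-Pearson intervals (95%) used these inferred counts, rounded, on the shortest listed transcript, if above 500 bases. Lengths came from GENCODE M21 transcripts of the same build. The steps were tested on data simulated with the same transcript lengths that they assume. That test cannot show whether the inferred counts hold in these libraries. Of the gene IDs, 23987 matched RefSeq GRCm38.p6, which gave coordinates.

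Members, lists and thresholds were chosen with earlier results of these data known. Named genes were all members, and up to 8 further pathway genes past 1.2-fold per comparison. Alternatives were another pseudocount, filter, scaling, fold limit and grouping. Python 3.11.15, numpy 2.4.6, pandas 2.3.3, scipy 1.17.1 and matplotlib 3.10.9 were used.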

Additional observations from a re-analysis of the deposited data

How the results depend on the processing

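No paired analysis was possible because each group had 1 library, and for the same reason no library could be left out. In the shear comparison the median log2 ratio of the glycolytic group stayed between 0.054 and 0.082 and that of the hypoxia group between -0.098 and -0.065 over all alternatives. In the Ift88 shRNA comparison the glycolytic median stayed between 0.025 and 0.073. In the Ift88 shRNA against static pair the glycolytic median ran from 0.064 to 0.14 and the hypoxia median from -0.099 to -0.026, with the values nearest 0 after centring by length and GC content. The hypoxia median of the Ift88 shRNA against sheared control comparison was -0.077 with a mean of at least 5 FPKM, the reverse of its main sign, as 4 low genes drop out, and with that filter 3 of 8 hypoxia genes were higher in each of the Ift88 shRNA and shear comparisons and 1 of 8 in the Ift88 shRNA against static pair. The number of members past 1.2-fold was small and moved easily. In the Ift88 shRNA comparison it was 2, but 4 with a pseudocount of 0.1 or none (Pdk1 and Ddit4 added), 1 with the filter at 5 FPKM, 11 at 1.1-fold and 0 at 1.5-fold. In the shear comparison it was 0, but 2 with a pseudocount of 0.1 or none and 2 after centring by length and GC content (Vegfa and Ankrd37), 1 with equal library totals (Ankrd37), 1 after centring on the median of all genes (Pkm) and 10 at 1.1-fold. In the Ift88 shRNA against static pair it was 5, but 6 with a pseudocount of 0.1 or none (Pdk1 added), 5 with Pdk1 in place of Ddit4 after centring by length and GC content, 3 with the filter at 5 FPKM, 16 at 1.1-fold and 0 at 1.5-fold. The cause of the shifts with scaling was not tested. Of the values of single members under the alternatives, 606 stayed within the counting interval of the FPKM ratio, widened where needed to take in the main value. Another 27 left it, and 0 of the members past 1.2-fold changed sign. A change of filter alone leaves the ratio of a single member as it was, so part of the 606 stayed by construction. Estimated fragments were fewest for Egln3, Ankrd37, Vegfa and Ddit4. The Vegfa estimate rests on a shortest transcript of 654 bases, so its low number is not a matter of depth alone.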

Other observations

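Gapdh is often used as a reference gene for normalisation, and it was the most abundant member here. Its FPKM was 1.31 times as high in the sheared Ift88 shRNA library as in the static control library. Among 12 other genes in common use as references, chosen after the Gapdh values were seen, the same ratio was between 0.771 (Tbp) and 1.13 (Rplp0). On a log scale Tbp was about as far from 1 as Gapdh, and Hprt stood at 0.832. Actb stood at 1.08, Ppia at 1.03, B2m at 1.001, Sdha at 1.01 and Polr2a at 0.980. In sheared against static control cells Gapdh had a ratio of 1.19, while the 12 lay between 0.832 (Tbp, about as far from 1 on a log scale) and 1.15 (Rplp0), with Actb at 1.005.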
